A study of Mus musculus with 12 samples.

Results

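The comparison described here set 3 libraries of mouse macrophages grown with methyl-nicotinamide (MNA) against 4 libraries grown with the solvent DMSO, 7 of the 12 libraries of the series. The members were MNA1, MNA3, MNA4 and DMSO1 to DMSO4. MNA2, the fourth library labelled as MNA, was left out because its expression profile lay with the DMSO libraries, so the members were chosen by the same measured expression values that are described below. For that reason the values of the 7-library fit are given as a description. The test that stands beside them used all 4 MNA libraries as labelled, in a fit of all 12 libraries (edgeR, quasi-likelihood). Every adjusted p given for a gene below is from that test. The log2 fold changes and standard errors (±) are from the 7-library fit unless the 12-library fit is named. They are therefore not the estimates, nor the spread, on which the adjusted p rests.

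Every library came from bone marrow derived macrophages (BMDMs) of wildtype mice. The cells were grown from bone marrow in medium with M-CSF, IL-4 and IL-10 and were exposed to DMSO or to MNA for 6 days, so that the cytokines were present in the controls as well. The remaining 4 libraries of the series were exposed to olaparib, a PARP inhibitor. The labels give no dose for MNA, and they do not say whether libraries with the same number came from the same mouse. A p-value therefore measures only the spread between these samples, part of which may be technical.

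M-CSF keeps macrophages alive and drives their growth from marrow progenitors. IL-4 acts through STAT6 and brings about alternative activation, the state often called M2, with arginase, chitinase-like proteins and the mannose receptor among its best known products. Interferon-gamma acts through IRF1 and other factors and brings about the opposed state, in which guanylate-binding proteins and MHC class II molecules are made. MNA is the methylated form of nicotinamide, which Nnmt makes when nicotinamide leaves the salvage pathway of NAD. Whether MNA changes the expression program of these macrophages is the question that the comparison addresses.

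Counts on genes summed to between 21146291 (DMSO1) and 31446849 (DMSO4) per library, and to 24076240, 25942885 and 24526972 in MNA1, MNA3 and MNA4. Macrophage markers were present throughout. The summed level of 12 such markers was 11640 to 12580 CPM (counts scaled to a common normalized library total) with DMSO and 13800, 13180 and 12840 CPM in MNA1, MNA3 and MNA4. Of the 12, 5 were counted as higher and 3 as lower in the 7-library fit, by the threshold given below (41.7% and 25%, beside 27.1% and 25.5% of all genes). Itgam stood at 649 to 897 CPM in the 3 MNA libraries and at 364 to 513 CPM with DMSO. Cd14 stood at 88.1 to 97.2 CPM with MNA and at 36.3 to 50 CPM with DMSO. Lgals3, a galectin abundant in macrophages, stood at 5970 to 6850 CPM in the 3 MNA libraries and at 7180 to 7390 CPM with DMSO. Cd68, a protein of the endosome and lysosome, stood at 910 to 1124 CPM with MNA and 1100 to 1305 with DMSO. Fcgr1 and Aif1, also markers of macrophages, were under 2 CPM in every one of the 7 libraries. The share of counts on mitochondrial genes was 1.04% to 1.35% with DMSO, and it was 2.26%, 1.66% and 1.61% in MNA1, MNA3 and MNA4.

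On a scale where the mean of the 4 DMSO libraries is at 0 and the mean of the 3 MNA libraries at 1, over all genes of the fit and with each member's own values left out of the means, MNA1, MNA3 and MNA4 lay at 0.946, 0.943 and 0.989. MNA2 lay at 0.0429, inside the range of the DMSO libraries (-0.0377 to 0.103). Its root mean square distance was 0.161 to the DMSO mean and 0.646 to the mean of the 3 MNA libraries, on the log2 scale. Of the 6677 genes counted as changed below, MNA2 was inside the DMSO range in 4443, beyond it on the side of the other MNA libraries in 1441, and beyond it on the opposite side in 793. The 4 olaparib libraries lay between 0.36 and 0.431 on this scale. Among the 8 DMSO and MNA libraries, no pair agreed within sampling noise.

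**Figure D1:**
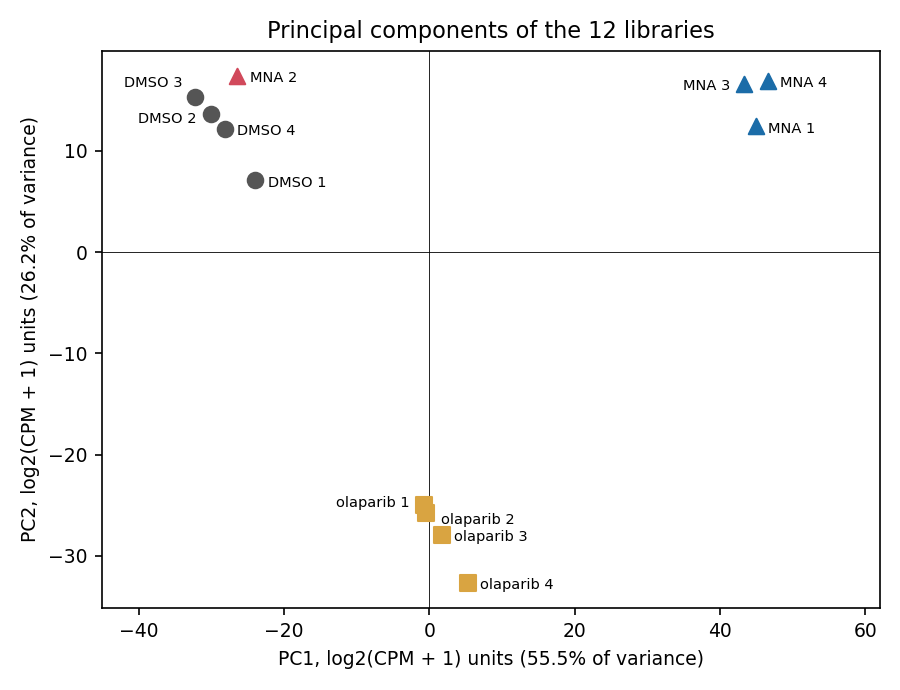
Position of the 12 libraries on the first (x axis, 55.5% of the variance) and second (y axis, 26.2%) principal component of log2(CPM + 1); each point is 1 library. MNA1, MNA3 and MNA4 sit together on the right at 43.4 to 46.6 on the first component, MNA2 sits at -26.4 among the DMSO libraries (-32.2 to -24.0), and the olaparib libraries lie apart from both on the second component.

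Between the 3 MNA and the 4 DMSO libraries, 12693 genes had at least 10 counts in at least 3 of the 7 libraries. Among these, 3438 genes (27.1%) were counted as higher with MNA and 3239 (25.5%) as lower, at a Benjamini-Hochberg adjusted p under 0.05 in the 7-library fit. The 3 MNA libraries lay above all 4 DMSO libraries in 3559 genes (28%) and below all 4 in 3420 (26.9%). The split was nearly even, and the median log2 fold change of all genes was 0.00595. The normalization (TMM) scales the libraries so that most genes lie near 0. Neither value therefore speaks to the total RNA of the cells. A difference of at least 2-fold was present in 1039 of the higher and 818 of the lower genes, and one of at least 4-fold in 362 and 350. At the threshold of at least 10 counts in 3 libraries, the 353 genes just inside, with that count in exactly 3 libraries, had a median mean count of 9.29, and the 372 genes just outside, with it in exactly 2, had one of 7.

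With all 4 MNA libraries as labelled, 12849 genes were tested in the 12-library fit. There, 2093 genes (16.3%) rose and 1580 (12.3%) fell at an adjusted p under 0.05, and 2080 and 1557 of these were also counted in the 7-library fit. Every count for a gene list below has to be read beside these shares and the 27.1% and 25.5% of the 7-library fit. With the replicate number as a block, 2184 rose and 1984 fell, and the adjusted p with that block is given below for a gene whose call it changes. These numbers depended on single libraries. Without MNA3 they were 408 and 55, without MNA4 444 and 62, without MNA1 692 and 160, and without MNA2 3579 and 3425. They also moved without DMSO2 (1011 and 494), DMSO3 (913 and 316) and DMSO4 (1200 and 540). A fit of the 8 MNA and DMSO libraries alone called 0 genes by edgeR, with 4856 at an unadjusted p under 0.05. By the naming rule, the 12 genes with the largest log2 fold change of the 7-library fit included 11 that rose in the 12-library test, and 1 that was not tested there. None of the 12 genes at the lower end passed that test, and 10 passed it with the block. The block also moved the log2 fold changes of these 12 genes further below 0, for Rbp4 from -2.16 to -4.74. The smallest adjusted p of the 12-library test was shared by many genes through the adjustment, so that equal values of 0.0142 recur below.

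**Figure D2:**
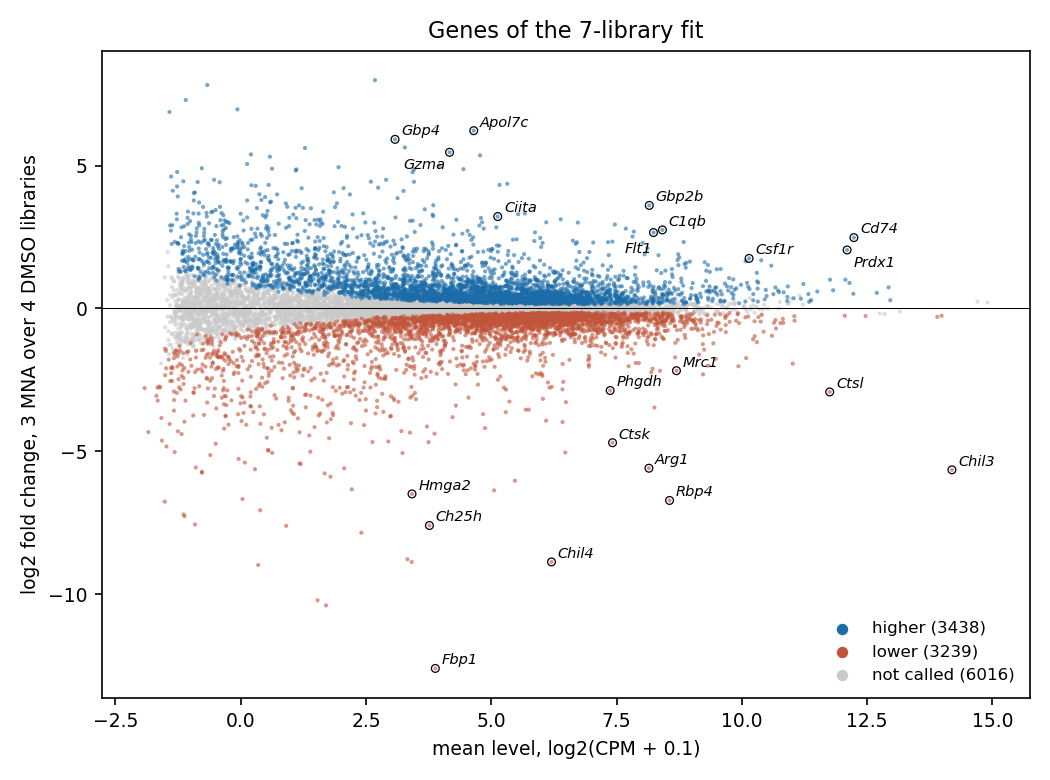
Log2 fold change of 3 MNA over 4 DMSO libraries (y axis) against the mean level (x axis, log2(CPM + 0.1)); each point is 1 of the 12693 genes, blue for the 3438 counted as higher and red for the 3239 counted as lower. Chil3 lies far to the right and well below 0, at -5.65, while Cd74 and Prdx1 lie to the right and above 0. The fitted value of a gene at or near 0 counts in the MNA libraries, such as Fbp1, depends on the prior count of the fit and is no measured fold.

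The guanylate-binding proteins and immunity-related GTPases, large GTPases that interferon induces and that attack the vacuoles of intracellular pathogens, had the highest median log2 fold change of the 36 gene lists that are not cell type markers. All 12 members in the fit were higher with MNA, against 27.1% of all genes, and all 12 rose in the 12-library test (16.3% of all genes rose). Their median log2 fold change was 3.2. RefSeq held a promoter window on GRCm38.p6 for 8 of the 12. The letters GAAANNGAAA, the core of the interferon-stimulated response element, were searched on both strands in the 250 bases before each start. They were found in 8 of these 8 windows, and in 936 of 27025 windows of all genes (3.46%). In the genes higher by at least 2-fold the share was 6.23% (47 of 754), and in those lower by at least 2-fold it was 4.1% (25 of 610). A match describes the letters and shows no binding. The 120 bases before the start are printed for 6 members from both GTPase families, 5′ to 3′ on the strand of the gene, with the matches in capitals, to show the letters of the motif and what surrounds it. They were taken from the 7 members with a match in that stretch; the match of Gbp2b began 137 bases before the start and is not printed.
Gbp2, chr3:142620543-142620662, plus strand: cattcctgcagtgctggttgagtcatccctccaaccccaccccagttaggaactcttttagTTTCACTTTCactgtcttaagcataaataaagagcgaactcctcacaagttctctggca
Gbp3, chr3:142559924-142560043, plus strand: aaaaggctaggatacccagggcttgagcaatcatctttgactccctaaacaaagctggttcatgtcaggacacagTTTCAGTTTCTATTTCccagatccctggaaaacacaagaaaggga
Gbp7, chr3:142530216-142530335, plus strand: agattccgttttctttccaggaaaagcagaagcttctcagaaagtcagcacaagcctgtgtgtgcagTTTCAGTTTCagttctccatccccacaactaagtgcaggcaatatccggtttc
Igtp, chr11:58199436-58199555, plus strand: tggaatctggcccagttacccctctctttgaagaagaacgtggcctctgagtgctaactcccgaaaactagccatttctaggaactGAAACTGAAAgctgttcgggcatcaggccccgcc
Irgm1, chr11:48871421-48871540, minus strand: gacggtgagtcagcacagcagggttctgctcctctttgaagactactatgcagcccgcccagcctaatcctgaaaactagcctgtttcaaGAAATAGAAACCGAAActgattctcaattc
Tgtp2, chr11:49064213-49064332, minus strand: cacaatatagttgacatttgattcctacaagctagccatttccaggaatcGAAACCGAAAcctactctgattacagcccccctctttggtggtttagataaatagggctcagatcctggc

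In these 6 sequences the match nearest to the start began 59 bases before it in Gbp2, 39 in Gbp3, 53 in Gbp7, 34 in Igtp, 24 in Irgm1 and 70 in Tgtp2. Gbp3 and Irgm1 held a pair of matches that overlap.

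Of the GTPases, Gbp2b (ENSMUSG00000040264, chr3:142594847-142619179) stood at 47.7, 35.7, 52.1 and 37.2 CPM in DMSO1 to DMSO4 and at 536, 484 and 558 CPM in MNA1, MNA3 and MNA4. The groups were far apart, with a 12.2-fold difference (log2 fold change 3.61 ± 0.13, standard error), and MNA2 stood at 36.9 CPM (adjusted p = 0.0142 in the 12-library test). Gbp4 (ENSMUSG00000079363, chr5:105115767-105139586) was close to absent with DMSO, at 0.0471, 0.206, 0.534 and 0.222 CPM, and stood at 18.3, 11.2 and 19.8 CPM in the 3 MNA libraries. Its log2 fold change was 5.92 ± 0.36, or 5.51 ± 1.13 in the 12-library fit (adjusted p = 0.0142), and MNA2 stood at 0.0716 CPM. Gbp2 stood at 36.3 to 49.5 CPM with DMSO and at 272 to 357 CPM with MNA, and Gbp7 at 6.97 to 10.4 and 74.2 to 90.2 CPM. Tgtp2, a GTPase of the second family, stood at 0.518 to 1.08 CPM with DMSO and at 16.9, 18.2 and 28.1 CPM with MNA. Of its 31-base words 90.5% recur in other genes, chiefly in its copy Tgtp1, so that its counts may belong to either. Irgm1 and Igtp moved less, with log2 fold changes of 2.26 ± 0.16 and 2.22 ± 0.16. None of the 12 members in the fit overlapped between the groups. Of 15 genes listed, 13 were found by symbol, and Gbp5 and Gbp6 were not.

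Upstream of these genes, interferon signalling genes were mostly higher. Of 18 in the fit, 14 were higher and 0 lower (median log2 fold change 0.438), 1 was lower without DMSO4 or without MNA1, and 10 rose in the 12-library test. Irf1, the transcription factor that carries much of the response to interferon-gamma, had 47.1, 51.1, 69.1 and 47.2 CPM with DMSO and 201, 299 and 304 CPM with MNA. That was a log2 fold change of 2.32 ± 0.16, with no overlap (adjusted p = 0.0142). Socs1, the feedback inhibitor of the same receptors, was higher by 1.63 ± 0.14, and Ptpn6, a phosphatase that dampens JAK signalling, by 1.51 ± 0.08. The receptor gene Ifngr1 rose, by 0.43 ± 0.09 on the log2 scale of the 7-library fit (adjusted p = 0.0422). Irf7, the factor that amplifies type I interferon, overlapped between the groups (4.75 to 8.08 CPM with DMSO, 3.06 to 6.8 with MNA).

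Antiviral interferon-stimulated genes did not move as a block. Among 39, 24 were higher and 5 lower (61.5% and 12.8%, against 27.1% and 25.5% of all genes), with a median log2 fold change of 0.65. In the 12-library test 19 rose and 2 fell (21 and 4 with the replicate block), where 16.3% and 12.3% of all genes did. The letters GAAANNGAAA occurred in 11 of the 28 with a window (39.3%). Ifit2, which binds viral RNA, stood at 3.06 to 4.51 CPM with DMSO and at 21, 31.5 and 33.1 CPM with MNA (log2 fold change 2.84 ± 0.18, adjusted p = 0.0142). Oas3, a sensor of double-stranded RNA, had 3.21 to 3.96 CPM with DMSO and 11.2, 13.1 and 19.2 CPM with MNA (adjusted p = 0.0165). In the other direction, Oasl1 stood at 5.98, 4.72, 6.21 and 8.41 CPM with DMSO and at 0.207, 0.389 and 0.202 CPM with MNA. Its log2 fold change was -4.54 ± 0.32, but MNA2 stood at 6.52 CPM and the 12-library test did not pass (adjusted p = 0.106). Ifitm3, a membrane protein that blocks viral entry, had 65.7 to 105 CPM with DMSO and 21.7 to 25.4 CPM with MNA, and it fell in that test (adjusted p = 0.0153). Isg15 and Rsad2, both widely used markers of the type I response, overlapped between the groups (adjusted p = 0.109 for Rsad2, or 0.0372 with the block).

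Genes of MHC class II presentation, by which macrophages show peptides to CD4 T cells, were the list with the next largest median (2.35). Of 12, 10 were higher and 1 lower in the 7-library fit, and 9 rose and 0 fell in the 12-library test. The 1 lower gene was not counted without DMSO1, DMSO3, DMSO4 or MNA4. Ciita (ENSMUSG00000022504, chr16:10480059-10528418), the coactivator that switches these genes on, stood at 7.63, 5.99, 8.48 and 5.08 CPM with DMSO and at 88.6, 51.8 and 48.6 CPM with MNA. This was a 9.3-fold difference (log2 fold change 3.22 ± 0.23, adjusted p = 0.0142), with MNA1 the highest library. Cd74, the invariant chain that guides class II molecules to the endosome, went from 1786, 984, 1470 and 1619 CPM to 9152, 7768 and 7621 CPM (log2 fold change 2.48 ± 0.17, adjusted p = 0.0161). Cd74 took 0.146% of the normalized counts with DMSO and 0.818% in the 3 MNA libraries, where it ranked 8 among all genes by counts, up from 57. The chain gene H2-Aa stood at 14.9 to 27.6 CPM with DMSO and at 172 to 211 CPM with MNA, and H2-DMa, which helps load the peptide, at 13.7 to 20 and 140 to 165 CPM. None of the 8 class II genes with a window held the interferon motif above.

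MHC class I presentation shifted less. All 18 members had a positive log2 fold change, 14 were higher (median 0.602), and 6 rose in the 12-library test (12 with the replicate block). Psmb9, a subunit of the immunoproteasome, stood at 19.3 to 23.9 CPM with DMSO and at 61.5, 79.6 and 85.2 CPM with MNA (adjusted p = 0.016). Tap1, the peptide transporter encoded next to it, was higher by 1.42 ± 0.11 on the log2 scale and Tapbp, which tethers it, by 1.19 ± 0.08. B2m, the light chain, was higher by 0.56 ± 0.11, and the 12-library test did not pass (adjusted p = 0.0528, or 0.0192 with the block). Of 16 costimulatory and checkpoint ligands, 5 were higher and 4 lower (31.2% and 25%, near the 27.1% and 25.5% of all genes). These numbers were 3 and 6 without MNA1. Cd86, which costimulates T cells, had 4.62, 2.99, 4.08 and 2.51 CPM with DMSO and 12.2, 8.74 and 7.52 CPM with MNA (adjusted p = 0.0289). Vsir, an inhibitory ligand, was higher by 0.81 ± 0.11 (adjusted p = 0.0198). Havcr2, an inhibitory receptor, stood at 8.62 to 13.2 CPM with DMSO and 1.59 to 2.9 CPM with MNA (adjusted p = 0.0502, or 0.0258 with the block).

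**Figure D3:**
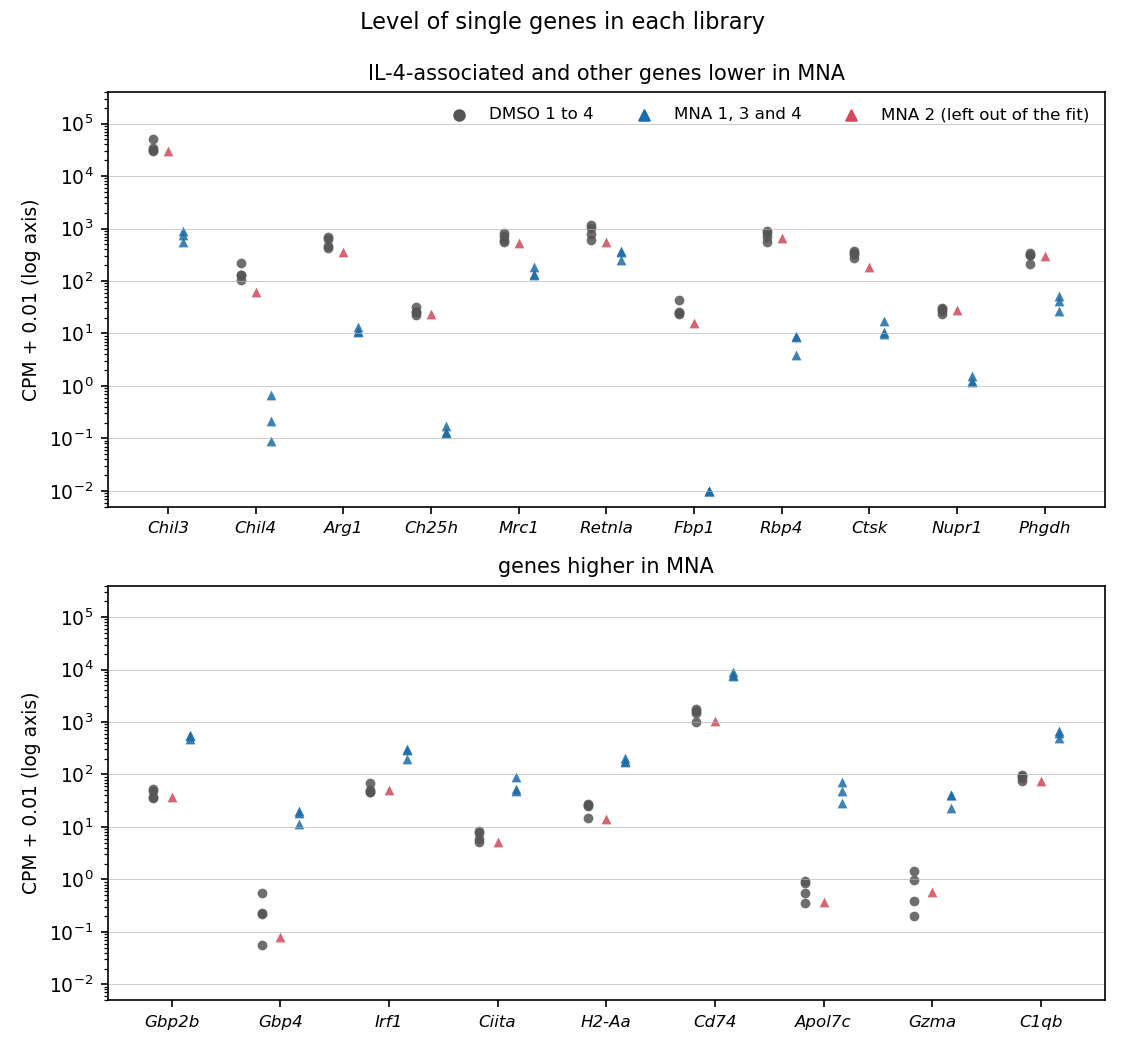
Level of 20 genes in each library (y axis, CPM + 0.01 on a log axis); grey circles are the 4 DMSO libraries, blue triangles MNA1, MNA3 and MNA4, and red triangles MNA2, which was left out of the fit. The upper panel shows genes lower with MNA and the lower panel genes higher with MNA. In every gene shown the blue points are apart from the grey points, and MNA2 has 30297 CPM of Chil3. Fbp1 had 0 counts in the 3 MNA libraries.

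Genes of alternative activation were lower on balance, but not all of them. Of 30 in the fit, 15 were lower, against 25.5% of all genes, and 7 were higher (median log2 fold change -0.504). In the 12-library test 6 fell and 5 rose (11 and 6 with the replicate block). Chil4, Ch25h and Chil3, the 3 with the smallest log2 fold change, and Arg1 did not pass that test without the block. Ch25h did not pass it with the block either (adjusted p = 0.061). In bulk RNA, fewer cells of a type and less RNA per cell cannot be told apart, here and below.

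Chil3 (ENSMUSG00000040809, chr3:106147554-106167564), a secreted chitinase-like lectin also known as Ym1, took more of the counts than any other gene with DMSO, at 3.67% of the normalized counts. It stood at 30547, 34536, 50639 and 31084 CPM in DMSO1 to DMSO4 and at 753, 890 and 550 CPM in MNA1, MNA3 and MNA4, where it ranked 162 with 0.0731% of the counts. The log2 fold change was -5.65 ± 0.26. MNA2 stood at 30297 CPM, just under the lowest DMSO library, and the 12-library test gave an adjusted p of 0.133 (0.0368 with the replicate block). Its relative Chil4 stood at 102, 132, 224 and 129 CPM with DMSO, 0.662, 0.0777 and 0.202 CPM in the 3 MNA libraries and 61.2 CPM in MNA2 (log2 fold change -8.87 ± 0.45, adjusted p = 0.0607, or 0.0304 with the block). Chil3 shares 41.5% and Chil4 19.2% of their 31-base words with other genes, mostly with each other.

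Arg1 (ENSMUSG00000019987, chr10:24915221-24927484), which turns arginine into ornithine, had 694, 435, 624 and 467 CPM with DMSO and 13, 10.5 and 11 CPM with MNA. It ranked 217 among all genes by counts with DMSO and 7765 in the 3 MNA libraries (log2 fold change -5.59 ± 0.20). MNA2 stood at 359 CPM, below every DMSO library, and the 12-library test did not pass (adjusted p = 0.0767, or 0.0377 with the replicate block). Ch25h, which makes 25-hydroxycholesterol, stood at 22.8 to 32.6 CPM with DMSO, at 0.117 to 0.162 CPM in the 3 MNA libraries and at 23.5 CPM in MNA2 (adjusted p = 0.149). Mrc1 (ENSMUSG00000026712, chr2:14229392-14332057), the mannose receptor CD206, had 733, 608, 826 and 548 CPM with DMSO and 186, 134 and 129 CPM with MNA. Its log2 fold change was -2.18 ± 0.17, and MNA2 stood at 518 CPM. Mrc1 fell in the 12-library test, with a log2 fold change of -1.49 ± 0.38 there (adjusted p = 0.021). Retnla, a secreted product of IL-4-treated macrophages also called Fizz1, went from 611 to 1142 CPM down to 256 to 376 CPM (adjusted p = 0.0211).

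Some other genes tied to IL-4 moved little or upwards. Mgl2, a lectin often used to mark IL-4-treated macrophages, overlapped between the groups, with 471 to 921 CPM with DMSO and 555 to 804 CPM with MNA. Cish, a feedback inhibitor induced by STAT proteins, had a log2 fold change of 0.02 ± 0.08, and Irf4, a factor needed for alternative activation, had one of -0.33 ± 0.14. Batf3 was higher by 1.12 ± 0.11 and Socs2 by 0.50 ± 0.12, and both rose in the 12-library test (adjusted p = 0.0142 and 0.0343). Of 11 receptor genes for M-CSF, IL-4, IL-10 and related cytokines, 8 were higher and 2 lower, and 6 rose and 1 fell in the 12-library test. The 2 lower genes became 1 without DMSO1, DMSO3, MNA1 or MNA4. Csf1r, the M-CSF receptor, stood at 608, 436, 566 and 462 CPM with DMSO and at 1730, 1850 and 1657 CPM with MNA (log2 fold change 1.75 ± 0.11, adjusted p = 0.0153). Il13ra1, which pairs with the IL-4 receptor chain, stood at 5.33 to 6.5 CPM with DMSO and at 23.9 to 27.8 CPM with MNA (adjusted p = 0.0142). Il4ra itself was higher by 0.60 ± 0.08 (adjusted p = 0.027), and Csf2rb, the common beta chain, by 0.86 ± 0.07 (adjusted p = 0.0176). Of the receptor for IL-10, Il10ra was higher by 0.68 ± 0.10 and Il10rb lower, with a log2 fold change of -0.76 ± 0.09.

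IL-10 response genes were split, with 4 higher and 6 lower of 15 (26.7% and 40%). Socs3, the inhibitor that IL-10 induces through STAT3, had 14.8, 15.7, 21.1 and 12.1 CPM with DMSO and 3.77, 3.11 and 3.92 CPM with MNA, and it fell in the 12-library test (adjusted p = 0.0244). Fcgr2b, the inhibitory Fc receptor, was at 0.335 of the DMSO level in the 7-library fit, with MNA2 at 363 CPM inside the DMSO range of 282 to 410 CPM (adjusted p = 0.0522, or 0.0321 with the replicate block). Of 14 NF-kB subunits and feedback inhibitors, 4 were higher and 4 lower (28.6% each, close to the 27.1% and 25.5% of all genes), and 7 were higher without DMSO1. Tnfaip3, also called A20, stood at 49 to 57.6 CPM with DMSO and at 22.3 to 26.6 CPM with MNA (adjusted p = 0.0232), while Nfkbie, another inhibitor, went from 30.4 to 42.9 CPM up to 60.9 to 71.1 CPM (adjusted p = 0.0142).

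The genes with the smallest log2 fold changes were of varied function. Fbp1 (ENSMUSG00000069805, chr13:62864753-62888282), the gluconeogenic fructose bisphosphatase, had 44.3, 23.3, 24.5 and 25.3 CPM with DMSO, 0 counts in all 3 MNA libraries and 16.1 CPM in MNA2. Against a floor of 3 counts per library it was at least 243-fold lower. In the same way Cldn11, a claudin of tight junctions, was at least 174-fold lower, Car6, a secreted carbonic anhydrase, at least 164-fold, Cspg4, a membrane proteoglycan, at least 86-fold, and Grem1, an antagonist of bone morphogenetic proteins, at least 52.3-fold. Rbp4, the retinol carrier of plasma, went from 560, 909, 835 and 681 CPM to 8.57, 3.92 and 8.77 CPM (log2 fold change -6.72 ± 0.29), with MNA2 at 647 CPM. Hmga2, a chromatin protein of growing and embryonic cells, went from 16.4 to 23.4 CPM down to 0.0389 to 0.404 CPM, with MNA2 at 25.1 CPM. Bex1, Fbln5, a protein of elastic fibres, and Ddx4, an RNA helicase known from germ cells, had log2 fold changes of -6.37 ± 0.42, -6.33 ± 0.32 and -6.03 ± 0.20. MNA2 stood at 49.4, 9.49 and 62.5 CPM in them, inside the DMSO range for Bex1 and Fbln5 and under it for Ddx4 (72.7 to 103 CPM). For Bex1, 40% of its 31-base words occur in other genes. None of these genes passed the 12-library test (adjusted p 0.0623 for Fbp1 to 0.244 for Hmga2). With the replicate block all but Car6 (adjusted p = 0.06) passed it, at 0.0272 for Bex1 to 0.0476 for Hmga2.

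Both granzymes that follow were among the 12 genes with the largest log2 fold change. Gzma, granzyme A, a protease of cytotoxic lymphocytes, had 0.188, 0.379, 1.44 and 0.984 CPM with DMSO and 23.2, 41.5 and 40.3 CPM with MNA (log2 fold change 5.47 ± 0.37, adjusted p = 0.0142). Gzmb, granzyme B, had 0.283 to 2.57 CPM with DMSO and 30.9, 43.6 and 51.5 CPM with MNA (log2 fold change 4.88 ± 0.44, adjusted p = 0.0165). Chosen after their values were seen, Prf1, the pore-forming perforin, stood at 3.89 to 4.93 CPM with MNA and at most at 0.134 CPM with DMSO, and Il2rb, a chain of the IL-2 receptor, went from 0.551 to 1.54 CPM to 19.3 to 22.1 CPM. Markers of T and NK cells were therefore set beside them. Of 11 listed, 6 were in the fit, 3 of them higher and 1 lower. Their summed level was 5.13 to 8.72 CPM with DMSO and 34.4, 49.7 and 48.5 CPM in MNA1, MNA3 and MNA4, and most of it was Gzma itself. Cd3d, Cd3g and Trac, which define T cells, were at or under 0.525 CPM in every one of the 7 libraries. Cd3d stood at 0.272 to 0.525 CPM with MNA and at most at 0.0344 CPM with DMSO. Cd3g stood at 0.242 to 0.35 CPM with MNA and at most at 0.167 CPM with DMSO, while Trac overlapped. Cd3e was at least 5.5-fold higher with MNA and reached 0.768 CPM. Nkg7 was at 1.98 to 2.22 CPM with MNA and at most at 0.134 CPM with DMSO. Ncr1 was at 0.121 to 0.455 CPM with MNA and at most at 0.1 CPM with DMSO. Klrb1c was lower with MNA (0.889 to 2.11 CPM, against 2.2 to 3.34, adjusted p = 0.0342, or 0.0565 with the replicate block). The part of such cells in the granzyme values was not tested.

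Markers of other marrow cells also differed between the groups. The summed level of 12 neutrophil markers was 21.2 CPM in DMSO1, 6.35 to 6.95 CPM in the other DMSO libraries and 23.1, 27.7 and 89 CPM in MNA1, MNA3 and MNA4. Of the 7 in the fit, 6 were higher (85.7%, against 27.1% of all genes). A gene low with DMSO could enter the fit through the 3 MNA libraries alone, so the filter may have set part of this share. Of the 7, 2 lay above all 4 DMSO libraries, and 2 of the 5 tested rose in the 12-library test. Mmp8 alone gave 17.6, 16.5 and 14.5 CPM of the sum with MNA and 4.67 to 9.8 CPM with DMSO, and it stood at 55.2 to 70.1 CPM with olaparib. In MNA4, S100a9 (20.9 CPM), Ngp (15.1 CPM) and S100a8 gave most of the rest. The defining marker Ly6g had counts in MNA4 alone, at 0.525 CPM, and S100a8 stood at 13.3 CPM there and at 1.12 and 1.55 CPM in MNA1 and MNA3. Of 10 B cell markers 5 were in the fit, and all 5 were higher, with the same limit from the filter. In the 12-library test 4 of them rose. The summed level of the 10 was 1.88 to 3.61 CPM with DMSO and 22.4, 24.2 and 17.2 CPM with MNA. Ighm gave most of it, at 18.1, 16.4 and 11.1 CPM. Of the red cell genes, Hba-a1, a globin, stood at 48.5 CPM in MNA4 and 2.68 CPM in DMSO1 and had 0 counts in MNA1 and MNA3, and Hbb-bs stood at 5.7 CPM in MNA4 and 0.942 CPM in DMSO1. The monocyte list was dominated by Chil3, which is also a gene of alternative activation. Apart from it, Ccr2, the receptor that brings monocytes out of the marrow, had 0.127 to 0.33 CPM with DMSO and 5.26, 0.932 and 1.21 CPM with MNA. Of 7 dendritic cell markers 3 were higher and 2 lower, and Ccr7, the receptor by which such cells reach lymph nodes, stood at 5.62 to 10.7 CPM with MNA and at most at 0.381 CPM with DMSO. The part of any of these cell types in the results was not tested.

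Apol7c, an apolipoprotein L gene, had the largest log2 fold change of the named genes that the 12-library test covered. It stood at 0.848, 0.344, 0.935 and 0.539 CPM with DMSO and at 28.4, 48 and 71.7 CPM with MNA (log2 fold change 6.23 ± 0.36, adjusted p = 0.0142). Gm8221, a gene model, had 0 to 0.134 CPM with DMSO and 6.38, 11.6 and 19.8 CPM with MNA. Of its 31-base words 65% recur in other genes and 47.3% in Apol7c, so that reads of either may have been counted for the other. Tnfaip8l3, a carrier of phosphoinositides, went from 0.401 to 1.11 CPM up to 13.8 to 24.5 CPM (adjusted p = 0.0142).

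Cholesterol synthesis, which the factor SREBP2 drives when sterols are scarce, was higher along almost the whole pathway. Of 22 genes in the fit, 19 were higher and 1 lower (median log2 fold change 1.38), and the same numbers, 19 and 1, were called in the 12-library test. Idi1, which isomerises the isoprene unit, stood at 1.41, 2.1, 2.64 and 2.51 CPM with DMSO and at 23.9, 12.6 and 18.9 CPM with MNA (log2 fold change 3.07 ± 0.24, adjusted p = 0.0142). Other genes hold 27.1% of its 31-base words. Cyp51, which removes a methyl group from lanosterol, stood at 12.1, 12.6, 14.3 and 15.4 CPM with DMSO and at 85.1, 57.8 and 74.8 CPM with MNA (log2 fold change 2.41 ± 0.13, adjusted p = 0.0142). Hmgcs1, which makes the precursor of mevalonate, went from 52.8 to 56.6 CPM up to 126 to 178 CPM, and Sqle, the squalene epoxidase, from 34.4 to 39 CPM up to 81.1 to 92.2 CPM. Both groups were apart in each of these genes. Srebf2, which encodes SREBP2, was higher by 1.32 ± 0.06 (adjusted p = 0.0142). Dhcr7, the last step of the parallel branch, was the exception, with a log2 fold change of -0.77 ± 0.07 (adjusted p = 0.0238). Insig1, which retains SREBP in the endoplasmic reticulum, overlapped between the groups (81 to 120 CPM with DMSO, 92.2 to 115 with MNA). MNA2 was near the DMSO libraries here too, at 2.29 CPM for Idi1 and 13.5 CPM for Cyp51. The letters CACCCCAC, the core of a sterol element, were in 1 of 15 windows of the list and in 2.98% of all windows.

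Genes of lipid handling under LXR and PPAR gamma, the nuclear receptors for oxysterols and fatty acids, were lower on balance. Of 24, 13 were lower and 8 higher (median log2 fold change -0.679), and 9 fell and 4 rose in the 12-library test. Fabp4, a fatty acid carrier, stood at 66.5, 62.7, 103 and 57 CPM with DMSO and at 6.17, 5.94 and 5.38 CPM with MNA (log2 fold change -3.63 ± 0.21, adjusted p = 0.0354). Apoe, which carries cholesterol out of macrophages, went from 44 to 87.5 CPM down to 6.71, 13.6 and 11.3 CPM (adjusted p = 0.0348). Nr1h3, the gene of LXR alpha, was at 36.8 to 47.3 CPM with DMSO and at 8.53 to 11.2 CPM with MNA (adjusted p = 0.0174). Pparg fell less, with a log2 fold change of -0.81 ± 0.16 (adjusted p = 0.0486). Hilpda, which blocks lipolysis at lipid droplets, was lower in the 3 MNA libraries (8.03 to 9.6 CPM, against 35.5 to 48) but not in MNA2 (47.2 CPM, adjusted p = 0.0651, or 0.0257 with the replicate block). Fasn, the fatty acid synthase, chosen after its values were seen, was higher by 1.38 ± 0.11 (adjusted p = 0.0142), and Fads2, a desaturase, went from 0.235 to 0.984 CPM up to 7.54 to 13.4 CPM (adjusted p = 0.0142).

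**Figure D4:**
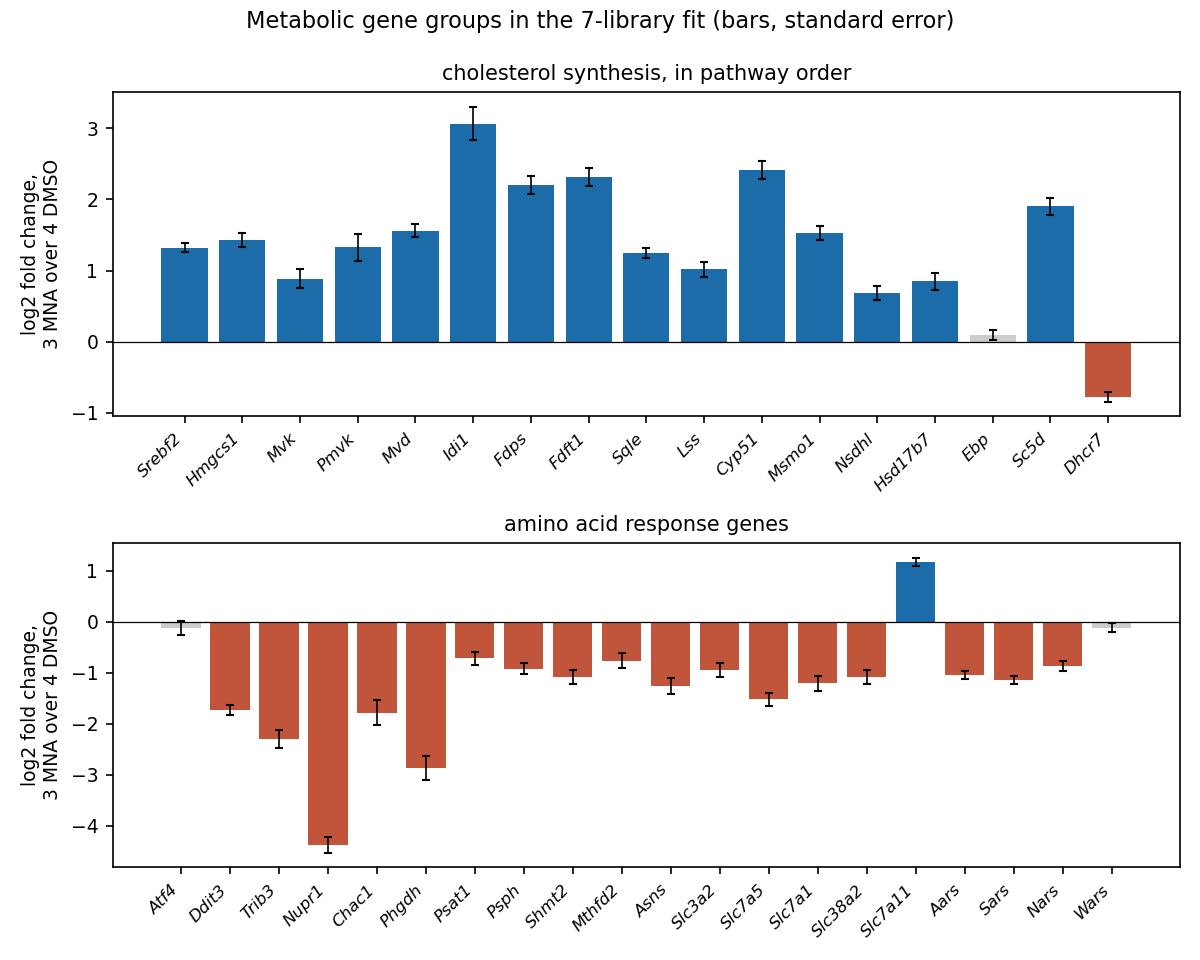
Log2 fold change of 3 MNA over 4 DMSO libraries (y axis, bars with standard error from the 7-library fit) for genes of cholesterol synthesis in pathway order (upper panel) and for amino acid response genes (lower panel); blue bars are counted as higher, red as lower, grey as neither. Idi1 (3.07) is the tallest bar of the cholesterol genes shown and Dhcr7 (-0.77) its only red one, while Slc7a11 (1.17) is the only blue bar among the amino acid response genes.

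ATF4 is a factor that cells translate when amino acids are short, and its targets import amino acids, charge tRNAs and make serine and asparagine. They were the list with the lowest median log2 fold change, -0.945. Of 33, 27 were lower and 1 higher, and 14 fell and 1 rose in the 12-library test (22 and 1 with the replicate block). The letters TGATGNAA, the core of the element that ATF4 binds with C/EBP proteins, were in 8 of 27 windows (29.6%) and in 3.91% of all windows. This motif was picked after the values were seen. The 120 bases before the start are shown for 3 lower genes and for the 1 higher gene, because the element is present on both sides, with the matches on either strand in capitals.
Nupr1, chr7:126625471-126625590, minus strand: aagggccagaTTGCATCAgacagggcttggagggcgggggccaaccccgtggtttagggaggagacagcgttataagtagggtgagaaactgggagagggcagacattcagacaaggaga
Asns, chr6:7693210-7693329, minus strand: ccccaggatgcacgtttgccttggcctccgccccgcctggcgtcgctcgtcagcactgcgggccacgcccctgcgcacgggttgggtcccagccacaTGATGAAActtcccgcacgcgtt
Aars, chr8:111033722-111033841, plus strand: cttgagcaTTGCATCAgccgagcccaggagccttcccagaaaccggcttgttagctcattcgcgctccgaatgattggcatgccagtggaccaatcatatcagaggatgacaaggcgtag
Slc7a11, chr3:50443614-50443733, minus strand: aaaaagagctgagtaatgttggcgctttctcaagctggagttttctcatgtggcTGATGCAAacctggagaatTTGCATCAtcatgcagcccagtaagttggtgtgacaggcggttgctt

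Nupr1 (ENSMUSG00000030717, chr7:126623249-126630861), a small stress-induced regulator, had 23.6, 27, 30.9 and 29.3 CPM with DMSO and 1.16, 1.55 and 1.25 CPM in the 3 MNA libraries (log2 fold change -4.38 ± 0.15). MNA2 stood at 27.6 CPM, inside the DMSO range, and the 12-library test did not pass (adjusted p = 0.108, or 0.0374 with the replicate block). Phgdh, which opens serine synthesis, went from 207, 307, 307 and 344 CPM down to 26.4, 51.8 and 41.2 CPM (adjusted p = 0.0799, or 0.0251 with the block). Other genes hold 56.3% of its 31-base words, most of them the gene model Gm7901. Trib3, a feedback inhibitor of the pathway, went from 94.9 to 109 CPM down to 13.7 to 27.2 CPM (adjusted p = 0.0624, or 0.0294 with the block). Ddit3, the factor CHOP, stood at 97.7 to 111 CPM with DMSO and at 25.9, 34.9 and 32.6 CPM with MNA, and it fell in the 12-library test (adjusted p = 0.0324). Of the genes whose sequences are shown, Asns, which makes asparagine, was at 0.417 of the DMSO level (adjusted p = 0.055, or 0.0298 with the block). Aars, which charges alanine tRNA, had a log2 fold change of -1.04 ± 0.08 (adjusted p = 0.031). Slc7a11, the cystine importer, which NRF2 also drives, went up from 147, 138, 135 and 154 CPM to 318, 359 and 292 CPM (log2 fold change 1.17 ± 0.08, adjusted p = 0.0142). The transcript of Atf4 itself overlapped between the groups, at 397 to 435 CPM with DMSO and 271, 457 and 408 CPM with MNA.

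Glutathione and antioxidant genes were higher on balance. Of 46, 30 were higher and 9 lower (65.2% and 19.6%, against 27.1% and 25.5% of all genes), with a median log2 fold change of 0.509. In the 12-library test 23 rose and 4 fell (24 and 7 with the replicate block). Prdx1, a peroxiredoxin that removes hydrogen peroxide, stood at 1750, 1763, 1386 and 1938 CPM with DMSO and at 6410, 7278 and 7524 CPM with MNA (log2 fold change 2.05 ± 0.12, adjusted p = 0.0142). Its share of the normalized counts was 0.171% with DMSO and 0.707% with MNA. Nfe2l2, the gene of NRF2, which drives many of these genes, had 325 to 425 CPM with DMSO and 839 to 932 CPM with MNA (adjusted p = 0.0142). Srxn1, which repairs oxidised peroxiredoxins, was higher by 1.69 ± 0.09, Gsr, the glutathione reductase, by 1.34 ± 0.07, and Gclm, of the enzyme that begins glutathione synthesis, by 1.14 ± 0.09. Gpx4, which protects membrane lipids, was lower, with a log2 fold change of -0.59 ± 0.06 (adjusted p = 0.0255). Me1, a source of NADPH, stood at 7.63 to 13.9 CPM with DMSO and at 2.63 to 3.19 CPM with MNA (adjusted p = 0.0502, or 0.0333 with the block).

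The phagocyte NADPH oxidase, which makes superoxide, did not move as a unit. Of 12 genes of the oxidase and the nitric oxide synthases, 7 were higher and 4 lower (58.3% and 33.3%, beside 27.1% and 25.5% of all genes). In the 12-library test 5 rose and 4 fell. Cybb, the catalytic membrane subunit, had 559, 442, 546 and 533 CPM with DMSO and 1684, 1610 and 1621 CPM with MNA (log2 fold change 1.66 ± 0.09, adjusted p = 0.0184). Rac2, the GTPase that completes the complex, had 178 to 254 CPM with DMSO and 628 to 635 CPM with MNA (adjusted p = 0.0142). Its partner Cyba and the organiser Ncf1 were lower, with log2 fold changes of -0.51 ± 0.07 and -0.65 ± 0.09, and both fell in the 12-library test (adjusted p = 0.0288 and 0.0142). Nos2, the inducible nitric oxide synthase, stood at 12.6, 19.5, 22.6 and 20.7 CPM with DMSO and at 8.53, 6.6 and 7.84 CPM with MNA. It fell, with a log2 fold change of -1.31 ± 0.19 (adjusted p = 0.0309).

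Of 18 inflammatory cytokines and enzymes, 10 were higher and 6 lower (55.6% and 33.3%, against 27.1% and 25.5% of all genes). In the 12-library test 7 rose and 4 fell. Il15, a cytokine for NK cells and memory T cells, stood at 4.16 to 5.21 CPM with DMSO and at 14.9, 16.4 and 14.7 CPM with MNA (adjusted p = 0.0142). Acod1, which makes itaconate, went from 10.3 to 14.5 CPM up to 30.7 to 41 CPM (adjusted p = 0.0167), and Ptgs2, the inducible cyclooxygenase, from 0.222 to 0.468 CPM up to 3.19 to 3.56 CPM (adjusted p = 0.0142). Tnf was higher by 0.73 ± 0.12 (adjusted p = 0.0253). Il1a, however, fell from 0.889 to 2.24 CPM down to 0.0404 to 0.207 CPM (adjusted p = 0.0259), and Vegfa had a log2 fold change of -1.14 ± 0.10 (adjusted p = 0.0328). The chemokines split as well, with 7 higher and 5 lower of 17 (41.2% and 29.4%). Ccl4, which draws T cells and NK cells, had 4.47, 2.06, 1.57 and 1.3 CPM with DMSO and 18.9, 19.6 and 18.7 CPM with MNA (log2 fold change 3.07 ± 0.30, adjusted p = 0.0165). Its neighbour Ccl3 went from 4.58 to 9.98 CPM up to 48.9 to 50.7 CPM (adjusted p = 0.0142). Ccl5, which draws T cells, had no more than 3 counts in any DMSO library and was at least 25.4-fold higher with MNA. Cxcl9, an interferon-gamma target, was at least 8.57-fold higher but reached only 0.525 to 1.45 CPM. On the lower side, Ccl8 stood at 12.1 to 19.9 CPM with DMSO and at 0.538 to 1.5 CPM with MNA (adjusted p = 0.0974, or 0.0385 with the replicate block), Ccl7 at 5.95 to 17.6 and 0.283 to 1.82 CPM (adjusted p = 0.0406), and Ccl6 at 751 to 1293 and 218 to 297 CPM (adjusted p = 0.0142). Ccl7 and Ccl8 attract monocytes.

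Genes of phagocytosis and efferocytosis, the uptake of particles and of dying cells, were counted in both directions. Of 43, 22 were higher (51.2%, against 27.1% of all genes) and 12 lower (27.9%, near the 25.5% of all genes; median log2 fold change 0.265), and 17 rose and 8 fell in the 12-library test. The 3 genes of complement C1q, which coats targets for uptake, rose together. C1qb stood at 86, 75.5, 98.8 and 92.7 CPM with DMSO and at 493, 611 and 679 CPM with MNA (log2 fold change 2.75 ± 0.12, adjusted p = 0.0142), and C1qa and C1qc were higher by 1.87 ± 0.15 and 1.98 ± 0.14. Axl, a receptor for dying cells, went from 2.27 to 4 CPM up to 20.2, 7.93 and 10.3 CPM (adjusted p = 0.026), while its relative Mertk overlapped (13.4 to 18.4 CPM with DMSO, 15 to 20.6 with MNA). Fgr, a kinase below Fc receptors and integrins, had 16.7, 8.16, 10.8 and 5.68 CPM with DMSO and 1.9, 1.48 and 1.13 CPM with MNA (log2 fold change -2.77 ± 0.37, adjusted p = 0.0194).

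Of 21 genes of resident macrophages and scavenger receptors, 7 were higher and 8 lower (33.3% and 38.1%). Cd5l, a secreted protein of tissue macrophages, went from 22.7, 9.67, 13.2 and 13.1 CPM down to 0.994, 1.44 and 0.768 CPM (log2 fold change -3.76 ± 0.33, adjusted p = 0.0142). Cd93, a receptor that takes part in the clearance of dying cells, went from 43.2 to 62.3 CPM down to 8.24, 1.94 and 2.1 CPM (adjusted p = 0.0193). Slc40a1, the iron exporter ferroportin, stood at 3.39, 1.69, 1.67 and 1.81 CPM with DMSO and at 28.9, 20.3 and 20.3 CPM with MNA (log2 fold change 3.47 ± 0.23, adjusted p = 0.0142). Tfrc, which brings iron in, went the other way, from 555 to 747 CPM down to 153, 220 and 198 CPM (adjusted p = 0.0142).

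Osteoclasts and giant cells form when macrophages fuse, and their genes went in both directions. Of 22, 10 were higher and 8 lower (45.5% and 36.4%, beside 27.1% and 25.5% of all genes). Ctsk, the collagen-degrading cathepsin of osteoclasts, had 269, 341, 380 and 330 CPM with DMSO and 9.65, 17.4 and 10.9 CPM with MNA. The log2 fold change was -4.70 ± 0.20, and MNA2 stood at 187 CPM, between the groups (adjusted p = 0.0357). Ocstamp and Dcstamp, both needed for cell fusion, went from 115 to 245 CPM up to 650 to 683 CPM and from 130 to 284 CPM up to 653 to 682 CPM (adjusted p = 0.0142 and 0.0154). Fos, an early response factor that osteoclasts need, had a log2 fold change of -2.01 ± 0.15 (adjusted p = 0.0289). Acp5, the tartrate-resistant phosphatase, overlapped between the groups. Of 51 lysosomal proteins, 21 were higher and 13 lower (41.2% and 25.5%, beside 27.1% and 25.5% of all genes), and 8 were lower without MNA4. Ctsl, cathepsin L, stood at 4956, 6251, 8340 and 4848 CPM with DMSO, at 832, 833 and 749 CPM in the 3 MNA libraries and at 5880 CPM in MNA2 (adjusted p = 0.0644, or 0.0236 with the replicate block). Other genes hold 28.2% of the 31-base words of Ctsl. Gm2a, the activator of ganglioside breakdown, and Ctsc, which activates granzymes, were higher by 1.60 ± 0.10 and 1.05 ± 0.08 (adjusted p = 0.0172 and 0.0224). Of 18 subunits of the V-ATPase, the pump that acidifies lysosomes, 7 were lower and 2 higher (38.9% and 11.1%, beside 25.5% and 27.1%). Atp6v1c1 had 402 to 496 CPM with DMSO and 223 to 233 CPM with MNA (adjusted p = 0.0198).

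Cell division genes were mostly higher in the 7-library fit. Of 31, 21 were higher and 1 lower (67.7% and 3.23%, against 27.1% and 25.5% of all genes), with a median log2 fold change of 1.05. Without MNA1, 13 were higher. In the 12-library test 5 rose (15 with the replicate block), where 16.3% of all genes rose. Mki67, the proliferation marker Ki-67, stood at 14.9, 9.12, 5.48 and 11.1 CPM with DMSO and at 42.5, 24.8 and 32.4 CPM with MNA (log2 fold change 1.72 ± 0.27, adjusted p = 0.0491). Cenpa, the histone variant of centromeres, had 11.7 to 16.4 CPM with DMSO and 53.7 to 59.2 CPM with MNA (adjusted p = 0.0147). Of 33 DNA replication genes, 18 were higher and 3 lower, and 10 were higher without DMSO2 or without MNA1. In the 12-library test 4 rose and 1 fell (7 and 1 with the block). Rrm2, which makes deoxynucleotides, stood at 9.51, 4.06, 2.37 and 7.59 CPM with DMSO and at 22, 13.5 and 15.8 CPM with MNA (adjusted p = 0.108). The D cyclins, which carry growth signals to the cell cycle, differed from each other. Ccnd2 had 8.57, 6.37, 4.28 and 6.51 CPM with DMSO and 49.8, 40 and 53.3 CPM with MNA (log2 fold change 2.90 ± 0.18, adjusted p = 0.0142). Ccnd3 went from 8.35 to 14.9 CPM up to 44.8 to 54.7 CPM (adjusted p = 0.0144), while Ccnd1 overlapped between the groups (45.3 to 88.9 and 35.3 to 47.2 CPM). Cdkn1a, which encodes the inhibitor p21 and is a target of p53, was at 0.612 of the DMSO level (adjusted p = 0.0247). Of 30 p53 target genes, 8 were higher and 10 lower, or 26.7% and 33.3% beside 27.1% and 25.5% of all genes. Gadd45a, a stress sensor, had 11.1 to 15.1 CPM with DMSO and 3.27, 5.71 and 6.83 CPM with MNA (adjusted p = 0.017).

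MNA itself belongs to the pathway of NAD and nicotinamide metabolism. Of 21 in the fit, 6 were higher and 6 lower, beside 27.1% and 25.5% of all genes, and 2 were lower without MNA4. In the 12-library test 5 rose and 2 fell. Nnmt, the enzyme that makes MNA, had 0 counts in all 12 libraries. Aox1, which oxidises MNA, was at or under 0.267 CPM with DMSO and 0.124 CPM with MNA, and Slc22a3, a transporter of organic cations, was at or under 0.0404 CPM in the 7 libraries. Nampt, the rate-limiting enzyme of NAD salvage, stood at 143, 149, 178 and 144 CPM with DMSO and at 151, 169 and 157 CPM with MNA. These overlapped, with a log2 fold change of 0.05 ± 0.08 (adjusted p = 0.9). Cd38, the main NAD-consuming enzyme of the cell surface, was under 1 CPM in the 7 libraries, and the groups overlapped. Enpp1, which hydrolyses nucleotides outside the cell, went from 7.58, 8.09, 12.6 and 9.14 CPM down to 1.66, 1.44 and 1.58 CPM (log2 fold change -2.59 ± 0.21, adjusted p = 0.0215). Nnt, which couples NADH to NADPH in mitochondria, went from 23.9 to 26.6 CPM up to 49.6, 41.5 and 37.4 CPM (adjusted p = 0.0144). Mat2a, which makes the methyl donor S-adenosylmethionine, was higher by 0.60 ± 0.06 (adjusted p = 0.02). Haao and Kynu, enzymes of NAD synthesis from tryptophan, were low but higher with MNA, at 1.94 to 3.56 CPM and 3.19 to 3.68 CPM against 0.286 to 0.659 CPM and 0.379 to 1 CPM.

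Of 26 PARPs and sirtuins, the enzymes that consume NAD in the cell, 9 were higher and 5 lower (34.6% and 19.2%). Of all genes 27.1% were higher and 25.5% lower. In the 12-library test 8 rose and 4 fell, where 16.3% and 12.3% of all genes did. Parp1, the main sensor of DNA breaks, stood at 64.1, 61.2, 56.3 and 59.3 CPM with DMSO and at 84.8, 76.1 and 80.4 CPM with MNA (log2 fold change 0.42 ± 0.06, adjusted p = 0.0165). Parp2, its closest relative, moved the other way by a similar amount, from 23.7 to 26 CPM down to 18.8 to 20.7 CPM (adjusted p = 0.0291). Parp8 went from 4.34 to 5.55 CPM up to 19 to 20.7 CPM (log2 fold change 2.01 ± 0.11, adjusted p = 0.0142). Parp3 went from 10.4 to 12.5 CPM up to 24.7 to 29.8 CPM (adjusted p = 0.0142). Sirt1, a deacetylase of nuclear proteins, was lower, at 19.2 to 24.1 CPM against 42.1 to 49.7 CPM (adjusted p = 0.0303).

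Of 30 glycolysis genes, 13 were higher and 8 lower (43.3% and 26.7%, beside 27.1% and 25.5% of all genes). In the 12-library test 8 rose and 6 fell. Aldoc, an aldolase best known from brain, went from 0.706, 1.07, 0.468 and 1.4 CPM up to 27.8, 28.1 and 33.7 CPM (log2 fold change 5.01 ± 0.23, adjusted p = 0.0142). Slc2a6, a hexose transporter of lysosomes, went from 27.1 to 41.7 CPM up to 159 to 173 CPM (adjusted p = 0.0142), and Pdk1, which shuts pyruvate out of mitochondria, was higher by 1.87 ± 0.15 (adjusted p = 0.0144). Ldha, the lactate dehydrogenase, fell, with a log2 fold change of -0.47 ± 0.07 (adjusted p = 0.0202), and Pkm, the pyruvate kinase, overlapped between the groups. Mitochondrial genes of oxidative phosphorylation were higher in 10 of 12 and rose in 8 in the 12-library test (median log2 fold change 0.695), and the share of counts on mitochondrial genes was higher with MNA as given above. Mt-Co1, a subunit of cytochrome c oxidase, stood at 6744, 5075, 5624 and 5918 CPM with DMSO and at 12114, 8793 and 8351 CPM with MNA (mt-Co1, log2 fold change 0.74 ± 0.14, adjusted p = 0.0382). Of its 31-base words 63.9% recur in other genes, and 45.2% recur in the gene model Gm13340. The 3 that the naming rule picked, mt-Co3, mt-Atp6 and mt-Co2, share 99.5% to 100% of their 31-base words with nuclear copies, which leaves their own levels uncertain. Of 48 nuclear genes of the same complexes, 3 were higher and 12 lower (6.25% and 25%, beside 27.1% and 25.5%), or 6 and 10 without MNA1. Of 31 genes of fatty acid oxidation and the TCA cycle, 6 were higher and 5 lower (19.4% and 16.1%). Hadha, of beta-oxidation, had a log2 fold change of -0.45 ± 0.06 (adjusted p = 0.0219).

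Of 59 genes of ribosome assembly and RNA polymerase I, 32 were lower and 2 higher (1 without MNA3), with a median log2 fold change of -0.241, and 12 fell in the 12-library test. Rrs1, a factor of the large subunit, went from 72.3, 84.9, 89.9 and 81.8 CPM down to 28.8, 39.5 and 37.7 CPM (adjusted p = 0.0355). Nop58 and Gnl3, both nucleolar proteins, had log2 fold changes of -0.87 ± 0.06 and -0.81 ± 0.06 (adjusted p = 0.064 for Nop58, or 0.0293 with the replicate block). Of 54 splicing factors, 19 were lower and 2 higher (5 without MNA1). In the 12-library test only 4 fell and 2 rose (6 and 2 with the block), where 12.3% and 16.3% of all genes did. Rbm39 was the lowest at -0.83 ± 0.07 (adjusted p = 0.0462). Of 31 chaperones, 9 were lower (29%, near the 25.5% of all genes) and 4 higher (12.9%, against 27.1%). Herpud1, of protein quality control in the endoplasmic reticulum, stood at 70.7 to 77.7 CPM with DMSO and at 23.8 to 30.6 CPM with MNA (adjusted p = 0.0189), and Pdia4, a disulfide isomerase there, had a log2 fold change of -1.03 ± 0.12 (adjusted p = 0.0165). Of 31 transcription factors of myeloid cells, 14 were lower and 5 higher. Arnt2 stood at 17.6, 19.2, 21.2 and 20.5 CPM with DMSO and at 0.331, 1.32 and 1.21 CPM with MNA (log2 fold change -4.35 ± 0.27, adjusted p = 0.0194), with MNA2 between the groups at 9.63 CPM. Vdr, the vitamin D receptor, went from 2.47 to 3.63 CPM up to 28.9, 14.7 and 19.5 CPM (adjusted p = 0.0142), and Bhlhe41 from 87.6 to 117 CPM down to 18.5 to 26.3 CPM (adjusted p = 0.0355). Spi1, the master factor of myeloid cells, overlapped between the groups.

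**Figure D5:**
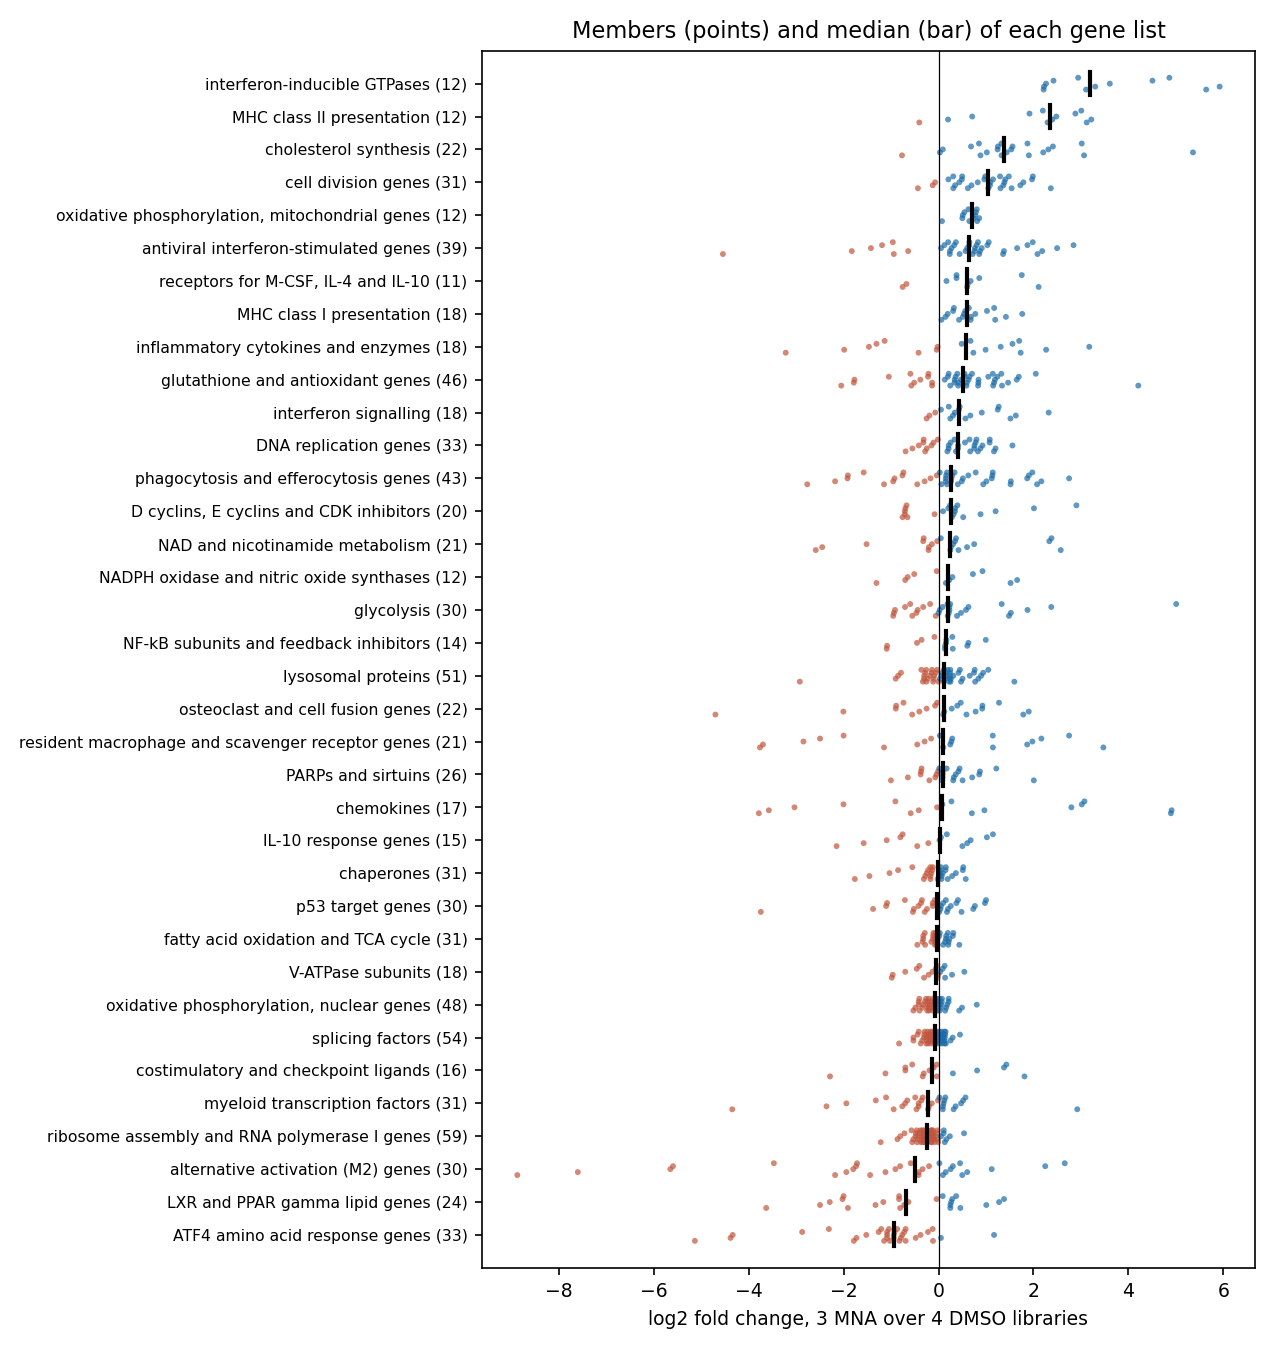
Log2 fold change of 3 MNA over 4 DMSO libraries (x axis) for the members of 36 gene lists (rows, with the number in the fit); each point is 1 gene, blue above and red below 0, and the black bar is the list's median. The interferon-inducible GTPases lie wholly above 0 (median 3.2), followed by MHC class II (2.35) and cholesterol synthesis (1.38), and the amino acid response genes lie lowest (-0.945). The fitted value of Stc2, which was at or under 2 counts in the 3 MNA libraries, is no measured fold.

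For the leading genes the values with olaparib were set beside those with MNA. Both treatments share the 4 DMSO libraries as controls. Chil3 stood at 22279, 17159, 27291 and 21177 CPM in the 4 olaparib libraries, all below every DMSO library, though its adjusted p was 0.613. Arg1 stood at 618, 401, 712 and 1038 CPM with olaparib. Gbp2b had 34.8, 44.8, 64.5 and 56.6 CPM with olaparib (log2 fold change against DMSO 0.21 ± 0.56, adjusted p = 0.801). Cd74 had 2259, 1773, 2198 and 2790 CPM (adjusted p = 0.339) and Idi1 4.2, 2.57, 4.38 and 3.27 CPM (adjusted p = 0.327). Nos2 had a log2 fold change of 1.64 ± 0.32 with olaparib (adjusted p = 0.00393) and of -1.08 ± 0.33 with all 4 MNA libraries in the same fit. Prdx1 had one of 1.44 ± 0.30 with olaparib (adjusted p = 0.00541) and of 1.76 ± 0.30 with MNA, and Slc7a11 one of 1.48 ± 0.20 and of 0.96 ± 0.20. Ctsk, Mrc1 and Cd5l, which fell with MNA, had log2 fold changes of -0.88 ± 0.76, -0.25 ± 0.38 and 2.13 ± 0.46 with olaparib. The difference between the treatments was not tested here.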

How the data were processed

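RNA of 12 cultures of bone marrow derived macrophages was sequenced after 6 days with DMSO, MNA or olaparib, 4 libraries each. Per the labels and the study's methods, the authors prepared libraries with the Illumina Stranded mRNA Prep kit, sequenced single-end reads, aligned them with STAR 2.5.2b to GRCm38.p5 and deposited raw gene counts per library, as whole numbers for 35275 genes. Which strand setting gave the deposited counts is not given in the sources used here. The study ran DESeq2 in R 3.6.0; no value of it was used.

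Counts were fitted with edgeR 4.0.16 (quasi-likelihood test, TMM normalization, Benjamini-Hochberg adjustment, threshold 0.05) in R 4.3.3. The 7-library fit took genes with at least 10 counts in at least 3 libraries and is a description, since MNA2 was left out on the outcome itself; the 12-library fit kept every library as labelled and is the test. The members, gene lists and tests were chosen with earlier results of these data known. Named genes were those counted as changed, not overlapping and with a mean of at least 100 counts: the 12 largest and 12 smallest log2 fold changes, up to 3 per list by size, and 12 genes named whatever their value; other genes named were chosen after their values were seen. Some genes that meet the rule are not reported here. Genes with a group at or under 3 counts per library are given as bounds, for counting error only. Gene positions are from GENCODE M21 on GRCm38, which held 34490 of the gene IDs. Shared words of 31 bases were counted between its transcripts. Same-numbered MNA and DMSO libraries deviated together (Pearson's r 0.206, 0.194 and 0.346 for numbers 1, 3 and 4). MNA3 had nearly the same r with DMSO2 (0.177), and the other differently numbered pairs had -0.251 to 0.0102. The replicate number was fitted as a block in an alternative. MNA2 and the olaparib libraries were not in this check of the numbers. The fits were tested on simulated data in which every MNA library carried the change. That setting held no library like MNA2, so it does not show how the 12-library test behaves on these data. DESeq2 1.42.0, other normalizations, filters and thresholds, and leaving out each library were tried as alternatives. Figures were drawn with matplotlib 3.10.9.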

Additional observations from a re-analysis of the deposited data

Results flagged for a closer look

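Among 131 named genes, 6 had a DMSO library whose level stood apart from the other 3 by Dixon's criterion for 4 values; chance gives such a value in about 1 of 20 groups. Fbp1 stood at 44.3 CPM in DMSO1, a gap of 0.872 of the group's range. Nfkbie stood at 42.9 CPM in DMSO1 (0.948), Slc40a1 at 3.39 CPM in DMSO1 (0.889), Vdr at 3.63 CPM in DMSO1 (0.835) and Bhlhe41 at 87.6 CPM in DMSO1 (0.896). Bcl3 stood at 12.5 CPM in DMSO4 (0.895). DMSO1 was the library apart in 5 of these 6 and had the lowest total count.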

How the results depend on the processing

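The 7-library counts were 1039 higher and 818 lower at a minimum of 2-fold, and leaving out each library gave 2884 to 3381 and 2848 to 3187. Adding MNA2 gave 0 and 0 by edgeR, with 4856 at an unadjusted p under 0.05, and 814 and 763 genes without overlap. In the 12-library test, 0 and 0 genes passed at 0.01, 0 and 0 passed with MNA and DMSO alone, and leaving out a library gave 408 to 3579 higher and 55 to 3425 lower. DESeq2 called 2434 and 2015 there, and 3356 and 3274 in the 7 libraries. With the replicate block the 7-library counts were 3240 and 3010 and those of the 12-library test 2184 and 1984. The block changed no call of a named gene in the 7 libraries. In the 12-library test it gave 26 named genes a call and took 0 calls away; of the other listed genes 63 gained and 12 lost one. The numbers were checked as pairs on MNA1, MNA3 and MNA4. Of the named genes' values 2150 kept direction and call, 153 lost the call (126 of them with MNA2 added) and 0 reversed. The median log2 fold change reversed for resident macrophage genes without a filter (-0.076), for inflammatory genes (-0.0192) and IL-10 response genes (-0.0971) at a mean of at least 50 counts, and for p53 targets with the replicate block (0.00521). Leaving out a library gave -0.167 to 0.148 for chemokines, -0.0754 to 0.00534 for p53 targets and -0.0592 to 0.0521 for IL-10 response genes, whose median was also below 0 with the replicate block (-0.0118) and with MNA2 added (-0.0594). The cause of these changes was not tested. Changes in genes at low counts are limited by depth.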
